A study of Mus musculus with 4 samples.

Results

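The transcriptomes of kidney and heart were compared in mice with sepsis caused by cecal ligation and puncture (CLP). All 4 libraries of the series entered the comparison, which were 2 kidney libraries and 2 heart libraries, 1 of each tissue from a CLP group and 1 from a CLP + MLT group that received melatonin. Every mouse group had undergone CLP, so the ratios below are ratios between septic tissues, and sham libraries were not used here. For the kidneys, the study's methods give male C57BL/6 mice aged 8 weeks that drank water with 25 μg/ml melatonin over 14 days, and collection 24 h after CLP. Those methods do not describe the hearts, whose dose and time are therefore left blank here. The label of the kidney melatonin library carries an unexplained 4 (CLP+MLT4), as does the title of the heart one. The sources do not say whether a library was made from 1 mouse or from pooled mice, nor whether a kidney and a heart came from the same mouse.

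Tissue was the factor of the comparison and treatment was its block. The only replication is that the tissue difference was measured in the CLP pair and again in the CLP + MLT pair, and p-values cover the spread between those pairs. Of 55401 genes, 17088 averaged 10 counts or more across the libraries and were tested. Counts on genes ran from 15883057 to 22927905 per library. Transcripts of the mitochondrial genome made up 14.8% and 24.2% of the counts in kidney and 31.6% and 36.0% in heart, and the kidney libraries also had fewer reads aligned to several places (23.6% and 32.6%, against 38.6% and 37.0%). The part of these differences in the results was not tested. Throughout, pairs of values are given in the order CLP, CLP + MLT. The log2 ratio is that of kidney over heart with its standard error, so positive values are higher in kidney. Levels are compared between genes only as TPM, which are counts divided by gene length and scaled to the same total in every library. In these bulk samples, fewer cells of a type and less RNA per cell cannot be told apart.

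The kidney is a chain of tubule segments and ducts, each lined by an epithelium with its own transporters. The proximal tubule reclaims most of the filtered solutes, the thick ascending limb dilutes the urine, and the distal nephron and collecting duct set the final balance of salt, water and acid. The ventricle is built mainly of cardiomyocytes, which contract through sarcomeres, release calcium from the sarcoplasmic reticulum and burn fatty acids in abundant mitochondria. Both organs are rich in mitochondria and use much energy, and both hold endothelium, fibroblasts, smooth muscle and macrophages.

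Most of the tested transcriptome (9823 genes, 57.5%) differed between the tissues at a fold of at least 1.5 and a Benjamini-Hochberg adjusted p of at most 0.05 (edgeR's quasi-likelihood test, used for all adjusted p-values below). Of these, 5051 genes (29.6% of those tested) were higher in kidney and 4772 (27.9%) were higher in heart. The median log2 ratio of all tested genes was 0.07. With scaling by library size alone, that median moved to 0.40 and the split to 6294 genes higher in kidney and 3640 higher in heart, so kidney took 63.4% of the calls in place of 51.4%. Large ratios were more extreme on the side of the heart. With genes at 0 counts in a tissue set to a floor of 3 counts per library, 1379 called genes were at least 10-fold higher in kidney and 999 in heart, but at a fold of at least 256 the numbers were 8 and 124. At a fold of at least 1024 they were 0 and 40. Genes with few counts in a tissue, but not 0 in both its libraries, kept their fitted ratio, which can lie beyond this floor. Chrm2 (-10.01), with 0 and 1 counts in kidney and 481 and 385 in heart, is an example. How much of the difference between the sides rests on such genes was not tested.

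**Figure D1:**
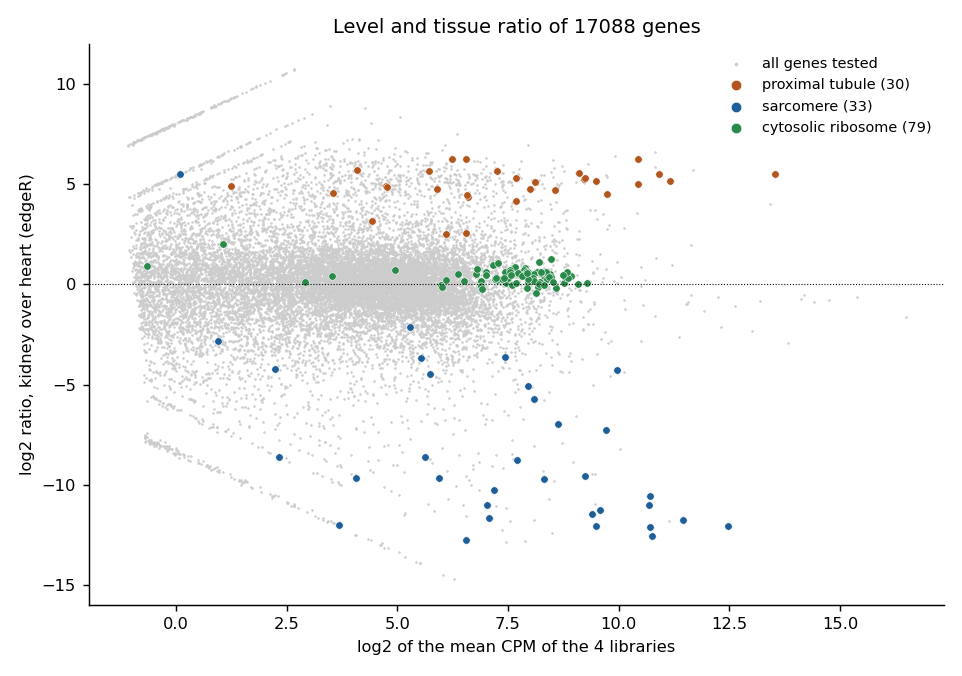
The horizontal axis is the log2 of the mean CPM (counts scaled to library size) of the 4 libraries and the vertical axis is the log2 ratio of kidney over heart, with 1 point per gene. The 30 proximal tubule genes lie above 0, all but 1 of the 33 sarcomere genes lie below it and reach further from 0, and the 79 ribosomal protein genes lie near it. The slanted lines of points at the left are genes with 0 or 1 count in a tissue, whose fitted ratio depends on the prior count.

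Genes of the tubule epithelium were higher in kidney in nearly every list. All 30 proximal tubule genes were called higher in kidney, with a median log2 ratio of 5.06, and the 30 took 7.28% and 8.06% of all TPM in kidney against 0.0872% and 0.206% in heart. Kap, an androgen-regulated kidney transcript, had the highest TPM of any nuclear gene with a protein product in kidney, with 448683 and 439585 counts against 4352 and 9602 in heart (log2 ratio 5.52 ± 0.72). Napsa, an aspartic protease of tubule and lung, had 47876 and 55751 counts in kidney and 211 and 909 in heart (6.29 ± 0.51). Slc7a13, an amino acid transporter, had 1666 and 4936 counts against 11 and 55 (6.25 ± 0.28). Slc22a7, an organic anion transporter, had 3051 and 2701 counts against 12 and 43 (6.24 ± 0.36). The tissues did not overlap for any of these 4 genes, which was also so for 81.9% of all tested genes. The smallest ratio in the list was 2.50.

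For 24 of the 30 proximal tubule genes a promoter was listed in RefSeq (build GRCm38.p6). These promoters are shown since the list took the largest share of kidney TPM of the 5 tubule and duct lists. In the 250 bases before the start, the 24 promoters held a median of 2.5 CpG pairs, against a median of 6 over all 32851 listed promoters. Of the 24, 4 were CpG-rich (16.7%, against 31.0%). Low values were not particular to kidney genes, as the 28 sarcomere promoters had a median of 4.5 and 14.3% CpG-rich. Those of the splicing list had a median of 19 and 82.6%. A site for the transcription factor HNF1, with 1 mismatch allowed, was found in 0 of the 24, against 0.189% of all listed promoters. A TATAAA between 40 and 15 bases before the start, on the strand of the gene, was found in 4 of the 24 (16.7%, against 1.99% of all listed promoters). The 4 are printed on the strand of the gene with TATAAA in capitals.
Kap (chr6:133853673-133853718, minus strand): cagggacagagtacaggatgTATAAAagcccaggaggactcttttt
Miox (chr15:89334413-89334458, plus strand): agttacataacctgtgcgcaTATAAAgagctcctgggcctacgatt
G6pc (chr11:101367667-101367712, plus strand): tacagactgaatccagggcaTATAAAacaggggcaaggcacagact
Acsm2 (chr7:119554292-119554337, plus strand): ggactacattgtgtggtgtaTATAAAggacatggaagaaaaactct
All 4 genes were called higher in kidney, Miox, which breaks down inositol, at 4.77, G6pc, which releases glucose, at 5.73, and Acsm2, an acyl-CoA synthetase, at 5.28. Of the tested protein-coding genes 78.7% had a listed promoter, under the 80% set for a comparison, which is therefore void. As a description, those 11069 promoters held a median of 15 CpG pairs, 59.0% were CpG-rich and 1.38% had a TATAAA, so the CpG values of all listed promoters are below those of coding genes.

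The more distal segments showed ratios of the same order. All 10 genes of the thick ascending limb were higher in kidney (median 5.97). Umod, the uromodulin secreted into urine, had 94985 and 50359 counts against 459 and 468 in heart (6.63 ± 0.48). Slc12a1, the sodium-potassium-chloride cotransporter, had 20190 and 26639 against 137 and 411 (6.02 ± 0.39). Cldn16, a tight junction protein needed for magnesium uptake, had 371 and 287 counts in kidney and 1 and 0 in heart. An antisense gene lies across Umod, Gm44588 (6.39), and another across Napsa, Gm15396 (6.94). Without a stated strand setting the members of such overlaps cannot be told apart.

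In the distal convoluted and connecting tubule list, 8 of 10 genes were higher in kidney and 2 were higher in heart. The 2 exceptions are used by both organs. Sgk1, a kinase that acts on sodium channels and responds to stress, had 2642 and 1042 counts in kidney and 3034 and 3172 in heart (-1.49 ± 0.27, adjusted p = 0.00093). Slc8a1, the sodium-calcium exchanger, had 772 and 593 against 1177 and 1281 (-1.45 ± 0.21, adjusted p = 0.00019). All 12 principal cell genes were higher in kidney (median 5.55), with the water channel Aqp2 at 7139 and 4741 counts against 26 and 143 (5.83 ± 0.53). All 12 intercalated cell genes were higher as well (median 5.45), with the proton pump subunit Atp6v1g3 at 1477 and 1298 against 8 and 10 (6.68 ± 0.30).

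Podocytes, the filter cells of the glomerulus, gave a mixed result. Of 10 genes, 3 were higher in kidney, 2 were higher in heart and 5 had a similar level in both. The share higher in kidney (30%) was near that of all genes (29.6%). A similar level means that the 95% interval of the ratio lay wholly within a 2-fold difference and that each library had at least 1 CPM. Nphs1, nephrin of the slit diaphragm, had 1134 and 756 counts in kidney and 120 and 139 in heart (2.25 ± 0.23). Synpo, an actin-binding protein, was higher in heart, with 2449 and 2092 counts against 1514 and 873 in kidney (-1.56 ± 0.22), as was the phospholipase Plce1 (-0.92 ± 0.25). Wt1, a transcription factor that also marks epicardium, had 441 and 226 counts in kidney and 284 and 297 in heart (-0.46 ± 0.24). These raw counts, which are not scaled to library size, overlapped between the tissues. Nphs1 overlaps a gene on the other strand, Nphs1os.

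Claudins, V-ATPase subunits and aquaporins followed the tubule. Of 12 tested claudins, which seal or open the paths between epithelial cells, 10 were higher in kidney and 1 was higher in heart. That 1 was Cldn5, the claudin of endothelium, with 810 and 478 counts in heart and 449 and 336 in kidney (-1.27 ± 0.26). Of 22 tested subunits of the V-ATPase, the pump that acidifies urine and organelles, 18 were higher in kidney and 1, Atp6v0a1, was higher in heart (-1.12). The ratios fell into a group of kidney-specific subunits (Atp6v0a4 at 6.15 and Atp6v1b1 at 5.77) and a group of general ones (Atp6v1a at 2.89, Atp6v1h at 1.95). Of 8 aquaporins tested, 5 were higher in kidney. Aqp1, which endothelium uses too, had 14358 and 12283 counts in kidney and 6382 and 6224 in heart (0.49 ± 0.30, adjusted p = 0.19).

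Transport and detoxification of organic compounds also separated the tissues. In the list of organic ion transporters, 15 of 19 were higher in kidney and 2 were higher in heart, namely Abcb1b (-1.20) and Abcb1a, the efflux pump of endothelium, with 720 and 815 counts in heart and 81 and 50 in kidney (-4.17 ± 0.25). Slco4c1, a basolateral transporter of thyroid hormone and cardiac glycosides, had 887 and 754 counts in kidney and 0 and 4 in heart. Of 304 tested genes of the solute carrier family, 159 were higher in kidney (52.3%, against 29.6% of all genes) and 69 were higher in heart (22.7%, against 27.9%). Among cytochromes P450, 30 of 47 were higher in kidney and 6 in heart. Cyp4a10, a fatty acid hydroxylase, had 36728 and 28122 counts against 312 and 748 (5.47 ± 0.43). All 10 tested UDP-glucuronosyltransferases were called higher in kidney, or 9 by DESeq2's Wald test, and 13 of 20 glutathione S-transferases, or 11. Ugt1a10 had 44 and 2 counts in kidney and Ugt2b34 had 160 and 7, both with none in heart, so that the counts of the CLP + MLT pair set no or only a small difference. Cyp4a, Ugt1a and Serpina1 genes are near-identical copies, so the share of each copy is uncertain.

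Endocrine genes of the kidney were led by Ren1, the renin gene, which had 4912 and 1810 counts in kidney and 11 and 11 in heart (7.50 ± 0.33). This was the largest ratio in favour of kidney among genes that averaged 1000 counts or more. Of 15 tested genes of the list, 13 were higher in kidney. Kl, the coreceptor of a phosphate hormone, had 4572 and 3706 counts against 52 and 101 (5.22 ± 0.29), and Casr, the calcium-sensing receptor, had 230 and 206 counts in kidney and 0 and 0 in heart, which puts it at least 41.3-fold higher in kidney. Agtr1a, the angiotensin receptor, was the exception, with 330 and 413 counts in heart and 462 and 223 in kidney (-0.78 ± 0.26, adjusted p = 0.024). Its raw counts overlap between the tissues, and the call was lost with scaling by library size alone and with DESeq2's Wald test.

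Transcription factors were split as sharply as the genes of the tubule. Of 27 regulators of kidney development and tubule identity, 26 were higher in kidney (median 5.02), or 25 by DESeq2's Wald test, and the remaining 1 was Wt1, at a similar level in both. Pax2 and Pax8, which specify the renal lineage, stood at 6.28 ± 0.39 and 5.98 ± 0.32. Hnf4a, the regulator of the proximal tubule, stood at 5.31 ± 0.41 and Emx2, a factor of the urogenital ridge, at 6.76 ± 0.39. Of 30 tested Hox genes, which encode position along the body axis, 28 were higher in kidney and 2 were not called. Hoxc4 had 198 and 203 counts in kidney and none in heart, and Hoxb7, active in the ureteric bud, had 440 and 278 against 2 and 2 (6.80 ± 0.49).

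Transcripts of the tubule were seen in the heart libraries at low counts, and more of them in the CLP + MLT heart. For all 5 tubule and duct lists, the summed TPM in heart was higher in CLP + MLT than in CLP, as for the proximal tubule above and for the principal cell list (0.00127% and 0.00389%). No gene of these 5 lists was at 0 counts in both hearts. Cldn16 of the thick ascending limb, at 1 and 0 counts, was the nearest to it among the genes named above from these lists, and Casr, which is in none of them, was at 0 in both. The 33 sarcomere genes took 0.0119% and 0.00969% of TPM in kidney. That was less than the proximal tubule list took in heart. It was more than the thick ascending limb, principal cell and intercalated cell lists took there. The sarcomere sum in kidney, 119.47 and 96.895 TPM, was uneven across its genes. Fhl2 had 16.958 and 9.7101 TPM in kidney, while Myl2 had 0.46211 and 1.2705. These sums therefore do not stand for each gene of the list, and the comparison was not repeated without the higher genes. The distal convoluted and connecting tubule list, which holds Sgk1 and Slc8a1, took 0.0107% and 0.0126% in heart. The part of these low counts in the size of the ratios was not tested.

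Sarcomere genes had the list median furthest from 0. Of 33 tested genes, 32 were higher in heart and 1 was higher in kidney, with a median log2 ratio of -9.67 (-9.58 with the gene at 0 counts in kidney set to its bound). Myl2, the ventricular regulatory light chain, had 78757 and 31216 counts in heart and 10 and 23 in kidney (-12.13 ± 0.91). Mybpc3, myosin-binding protein C, had 22489 and 24199 against 13 and 4 (-12.07 ± 0.57). Xirp2, a protein of the intercalated disc, had 2683 and 3424 against 0 and 1. Tnni3, cardiac troponin I, had 76057 and 31370 counts against 30 and 41 (-11.01 ± 0.79). Each was far outside the range of the other tissue. Myh6, the adult alpha-myosin, had a mean of 3072 TPM in heart and Myh7, the beta-myosin, had 289.7. Several antisense genes lie across these loci (Gm49130 on Myh6, Mhrt and Gm31251 on Myh7) and their counts cannot be separated from those of the myosins.

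The single sarcomere gene on the side of the kidney was Myl7, the atrial light chain, with 54 and 30 counts in kidney and 1 and 0 in heart (5.52 ± 1.23, adjusted p = 0.0026). Myl4, the other light chain of atrium, had 70 and 38 counts in heart and 12 and 10 in kidney. Nppa, the atrial natriuretic peptide, had 2287 and 1009 counts in heart against 30 and 23 in kidney (-6.50 ± 0.37). The labels call the samples heart without naming a chamber, and Myl7 was close to absent from them.

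The promoters of sarcomere genes are shown for the sequences to which muscle regulators bind, the CArG box of serum response factor and the MEF2 site. RefSeq listed a promoter for 28 of the 33 genes. A CArG box lay within 250 bases before the start of 7 of the 28 (25%, against 1.47% of all listed promoters), and a MEF2 site in 5 of 28 (17.9%, against 2.92%), with both strands searched. Over the 11069 promoters of tested protein-coding genes the shares were 1.17% and 1.73%. CArG boxes were not particular to this list. They were in 3 of 18 promoters of glutathione S-transferases (16.7%), a family mostly higher in kidney, and in 0 of 24 of the proximal tubule list. A match is only a run of letters and was not tested for binding. The CArG boxes are in capitals, on the strand of the gene, and no printed CArG box shares bases with a printed MEF2 site.
Actc1 (chr2:114052893-114052942, minus strand): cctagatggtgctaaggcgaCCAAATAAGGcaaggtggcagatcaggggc
Acta1 (chr8:123894819-123894868, minus strand): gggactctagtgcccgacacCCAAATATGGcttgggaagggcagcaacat
Myl3 (chr9:110763573-110763622, plus strand): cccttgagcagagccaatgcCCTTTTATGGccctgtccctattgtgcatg
Myl7 (chr11:5898814-5898863, minus strand): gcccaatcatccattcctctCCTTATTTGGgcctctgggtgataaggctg
Myom1 (chr17:71019438-71019487, plus strand): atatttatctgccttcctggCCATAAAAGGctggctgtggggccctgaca
Ldb3 (chr14:34588687-34588736, minus strand): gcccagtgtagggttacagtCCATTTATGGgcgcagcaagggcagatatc
Fhl2 (chr1:43196828-43196877, minus strand): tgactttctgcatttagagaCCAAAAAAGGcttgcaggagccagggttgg
The MEF2 sites of 4 further genes are in capitals below, also on the strand of the gene.
Mybpc3 (chr2:91118034-91118083, plus strand): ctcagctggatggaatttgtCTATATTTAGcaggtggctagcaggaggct
Ttn (chr2:76982684-76982733, minus strand): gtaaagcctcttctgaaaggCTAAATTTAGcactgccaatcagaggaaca
Myoz2 (chr3:123034991-123035040, minus strand): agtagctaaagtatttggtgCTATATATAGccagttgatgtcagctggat
Xirp2 (chr2:67445908-67445957, plus strand): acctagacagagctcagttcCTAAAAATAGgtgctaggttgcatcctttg
Of these 11 genes, 10 were called higher in heart and Myl7, with a CArG box 61 bases before its start, was called higher in kidney. Acta1, the skeletal alpha-actin, had 809 and 294 counts in heart and 2 and 0 in kidney, and Actc1, the cardiac alpha-actin, had 3989 and 5485 against 6 and 5 (-10.28 ± 0.38).

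Genes that move calcium and carry the action potential were on the side of the heart as well. Of 19 tested calcium-handling genes, 17 were higher in heart and 2 were not called (median -4.49). Trdn, triadin of the calcium release complex, had 1558 and 1406 counts in heart and none in kidney, at least 569-fold higher. Ryr2, the release channel, had 10785 and 9417 against 14 and 35 (-9.30 ± 0.57), and Pln, phospholamban, had 22405 and 23789 against 63 and 38 (-9.46 ± 0.47). Atp2a2, the calcium pump that many cells use, had 26997 and 21176 against 6171 and 3552 (-2.94 ± 0.36). Pln overlaps Cep85l on the other strand.

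In the list of conduction and ion channel genes, 17 of 20 were higher in heart and 2 were higher in kidney. Kcnj3, a potassium channel opened by the vagal signal, had 1261 and 803 counts in heart and 4 and 2 in kidney (-9.03 ± 0.35). The 2 on the side of the kidney were the channel Kcnq1 and the sodium channel subunit Scn4b, at 1.91 ± 0.25 and 1.94 ± 0.26. Among 54 tested potassium channel genes, 23 were higher in heart (42.6%, against 27.9% of all genes). The 16 higher in kidney made up 29.6%, the same share as over all genes. Kcnj1, the potassium secretion channel of the tubule, had 6310 and 4371 counts in kidney and 65 and 81 in heart (5.59 ± 0.28), and Kcnv2, a modifier of voltage-gated channels, had 0 and 0 counts in kidney and 889 and 1229 in heart.

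Cardiac hormones and transcription factors completed the picture of the heart. Nppb, the B-type natriuretic peptide, had 143 and 395 counts in heart and none in kidney, at least 88.5-fold higher, and Corin, the protease that activates natriuretic peptides, had 6950 and 7790 against 128 and 86 (-6.71 ± 0.33). Adm, the vasodilator adrenomedullin, was higher in kidney (1.70 ± 0.36, adjusted p = 0.0023). Of 19 tested cardiac transcription factors, 18 were higher in heart and 1 was higher in kidney. Gata4 had 367 and 405 counts in heart and none in kidney, at least 164-fold higher. Hand2, Tbx5, Tbx18 and Tbx20 were likewise at 0 in both kidney libraries. With these 5 at their bounds the median was -5.45, against -6.03 as fitted. Nkx2-5 had 204 and 116 counts in heart and 1 and 0 in kidney.

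**Figure D2:**
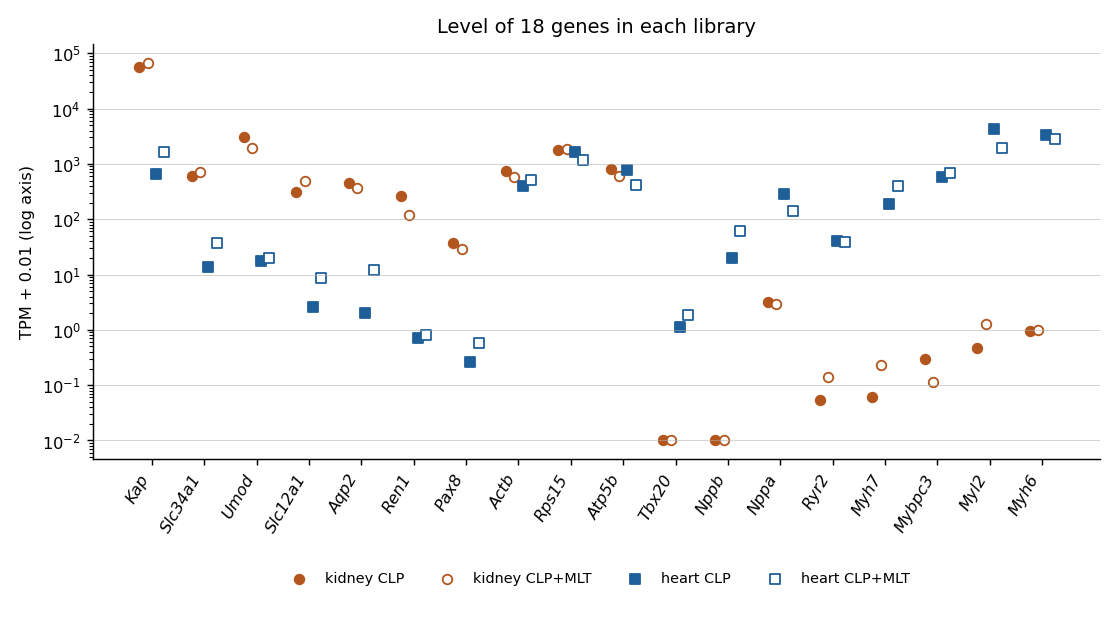
The vertical axis is the level in TPM, plus 0.01, on a log axis, for 18 genes along the horizontal axis, with filled symbols for CLP, open symbols for CLP + MLT, circles for kidney and squares for heart. The 7 kidney genes at the left have all circles above all squares, Rps15, Actb and Atp5b have circles and squares close together, and the 8 cardiac genes at the right have all squares above all circles, with Tbx20 and Nppb listed at 0 in kidney.

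**Figure D3:**
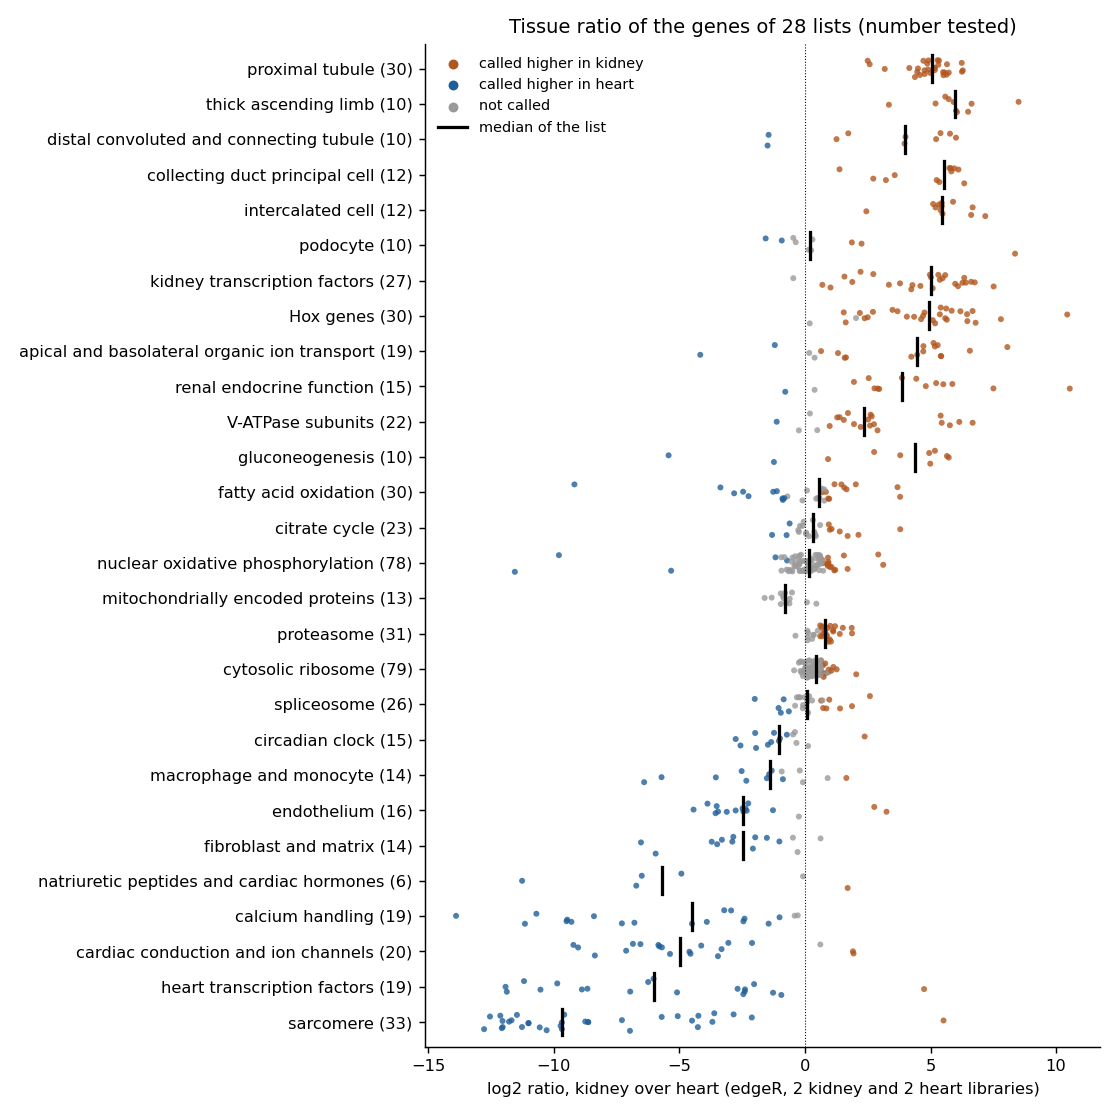
The horizontal axis is the log2 ratio of kidney over heart, each point is a gene of the list named at the left, and the black bar is the median of the list. Tubule lists lie at the right, cardiac lists at the left, and the genes of the proteasome, ribosome and spliceosome lie between -2.0 and 2.59. Ratios of genes at 0 counts in a tissue depend on the prior count.

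Many enzymes are encoded by a gene used in muscle and a related gene used elsewhere, and 24 such pairs were compared. Both members were tested in 23 pairs. The muscle form was higher in heart in 20 pairs, the other form was higher in kidney in 15, and both held in 13. The form with the higher TPM changed between the tissues in 13 pairs. The muscle form was the higher one in both tissues in 9 pairs, such as the fatty acid binding proteins Fabp3 and Fabp1, and the other form in 1 pair, Cpt1b and Cpt1a of carnitine palmitoyltransferase.

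Subunits of cytochrome c oxidase, the last complex of the respiratory chain, showed the exchange most plainly. Cox6a2 had a mean of 1987 TPM in heart and 3.04 in kidney, while Cox6a1 had 133.8 and 1516. Cox6a2 thus made up 93.7% of the pair in heart and 0.20% in kidney. Cox8b made up 85.4% of its pair with Cox8a in heart and 0.0266% in kidney, and Cox7a1 made up 77.0% of its pair with Cox7a2 in heart and 5.95% in kidney. Cox7a2 itself was not called (0.24 ± 0.33, adjusted p = 0.55). In every pair of cytochrome c oxidase the muscle share of the CLP + MLT heart was below that of the CLP heart, at 95.6% in CLP and 88.9% in CLP + MLT for Cox6a2.

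The exchange also held for transporters and enzymes of energy supply. Slc25a4, the adenine nucleotide carrier of muscle, made up 93.9% of its pair with Slc25a5 in heart and 17.2% in kidney. The mitochondrial creatine kinase Ckmt2 made up 99.8% of its pair with Ckmt1 in heart and 0.459% in kidney. Eno3, muscle enolase, made up 91.9% with Eno1 in heart and 13.5% in kidney. Fbp2, the muscle fructose bisphosphatase, and Ppargc1a, a regulator of mitochondrial genes, were both higher in kidney (0.92 and 0.69).

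**Figure D4:**
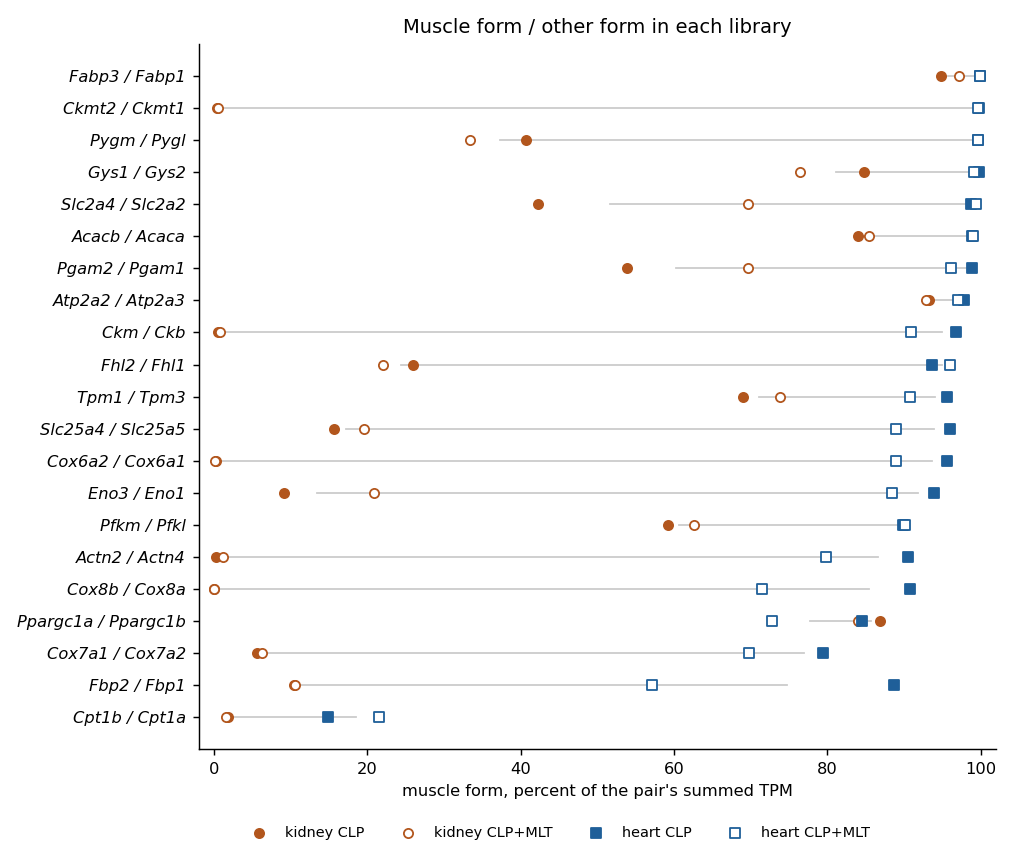
The horizontal axis is the share of the muscle form in the summed TPM of its pair, for 21 of the 23 pairs, with filled symbols for CLP, open symbols for CLP + MLT, circles for kidney and squares for heart, and a line joining the tissue means. Heart lies to the right of kidney in all pairs but Ppargc1a and Ppargc1b, and 9 pairs have the mean of both tissues above 50%.

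Most pathways of energy metabolism had genes called in both directions. Of the 13 protein genes of the mitochondrial genome 0 were called by edgeR (median -0.79), with 1, mt-Co3, at an unadjusted p under 0.05. DESeq2's Wald test called 7 of the 13 higher in heart, and 1 was called higher in kidney with scaling by library size alone. The median ran from -1.20 without the CLP + MLT kidney library to -0.22 without the CLP kidney library. mt-Co1, the first oxidase subunit, had 939502 and 1119224 counts in kidney and 1938186 and 2224695 in heart (-1.60 ± 1.09, adjusted p = 0.23). The mitochondrial ribosomal RNAs mt-Rnr1 and mt-Rnr2 were higher in heart (-2.34 ± 0.61 and -2.92 ± 0.71). Of 78 nuclear genes of oxidative phosphorylation, 15 were higher in kidney, 5 were higher in heart and 15 had a similar level. The called shares (19.2% and 6.41%) were below those of all genes (29.6% and 27.9%). The similar share (19.2%) was near that of all genes (17.8%). With scaling by library size alone the numbers higher were 28 and 3. Apart from the oxidase subunits with a muscle form, Cox6a1, Cox8a, Cox6a2, Cox8b and Cox7a1, the largest called ratio was that of Sdhc of complex II (1.70 ± 0.24).

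In the citrate cycle, 10 of 23 genes had a similar level, 7 were higher in kidney and 3 were higher in heart, or 11 and 1 with scaling by library size alone. Pcx, pyruvate carboxylase, which refills the cycle and feeds glucose synthesis, had 13798 and 5497 counts in kidney and 392 and 445 in heart (3.80 ± 0.32). Idh2, the mitochondrial isocitrate dehydrogenase, was higher in heart (-1.31 ± 0.35). In fatty acid oxidation 11 of 30 genes were higher in kidney (36.7%, against 29.6% of all genes) and 10 were higher in heart (33.3%, against 27.9%), shares near those of all genes. The numbers were 16 and 7 with scaling by library size alone. The genes higher in heart include the fatty acid binding protein Fabp3 (-3.36 ± 0.35), the lipase Lpl (-2.82 ± 0.41) and the fatty acid receptor Cd36 with 15589 and 14165 counts against 7352 and 3008 (-2.25 ± 0.33). Ehhadh, the peroxisomal enzyme, had 24652 and 9744 counts in kidney and 746 and 861 in heart (3.69 ± 0.35).

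Gluconeogenesis, which only liver and kidney carry out on a large scale, had 8 of 10 genes higher in kidney and 2 higher in heart. Pck1, which commits carbon to glucose, had 76597 and 33584 counts in kidney and 801 and 1408 in heart (4.99 ± 0.49). Pfkfb1, which drives the opposite flux, and Pck2, the mitochondrial form of Pck1, were higher in heart (-5.43 ± 0.29 and -1.23 ± 0.22). In glycolysis, 9 of 21 genes were higher in kidney (42.9%, against 29.6% of all genes). Another 6 were higher in heart (28.6%, against 27.9%), a share near that of all genes. Hk2, the insulin-responsive hexokinase, had 1653 and 1358 counts in heart and 24 and 17 in kidney (-6.81 ± 0.28), and Pklr, the pyruvate kinase of liver and kidney, had 2436 and 263 counts in kidney and 31 and 12 in heart (4.95 ± 0.34).

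Other cell types were mostly represented more strongly in heart. Of 16 endothelial genes, 13 were higher in heart and 2 were higher in kidney, and the list took 0.0924% and 0.108% of TPM in heart and 0.0378% and 0.0243% in kidney. Vwf, the clotting factor of larger vessels, had 1142 and 908 counts in heart and 96 and 52 in kidney (-4.43 ± 0.24). The exceptions were Plvap, the diaphragm protein of fenestrated capillaries, with 2628 and 1210 counts in kidney and 119 and 131 in heart (3.25 ± 0.25), and Ehd3, a membrane-traffic protein of glomerular endothelium (2.76 ± 0.29). Fibroblast genes were higher in heart in 11 of 14 and smooth muscle genes in 8 of 8. The smooth muscle list includes Des, desmin, which cardiomyocytes use too. Of 32 tested collagen genes, 19 were higher in heart and 7 in kidney. The 7 include Col4a3 (4.37 ± 0.28) and Col4a4 (3.31 ± 0.24), chains of the glomerular basement membrane.

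Macrophage and monocyte genes differed in composition. Of 14 tested genes, 9 were higher in heart and 1 was higher in kidney. Cd163 and Lyve1, marks of perivascular macrophages, had 279 and 150, and 112 and 137 counts in heart, against 6 and 2, and 5 and 2 in kidney (-6.40 ± 0.47 and -5.71 ± 0.58). Cx3cr1, the fractalkine receptor of kidney macrophages, had 159 and 126 counts in kidney and 29 and 31 in heart (1.65 ± 0.42). It overlaps other tested genes, among them Xirp1 (-8.63) on the same strand. Csf1r, the receptor shared by macrophages, had a similar level (-0.08 ± 0.25). Of 7 tested neutrophil genes, 4 were higher in heart, with S100a8 at 244 and 164 counts against 100 and 58 (-1.99 ± 0.31). All 5 erythroid genes were called higher in heart, or 4 with scaling by library size alone and with DESeq2's Wald test, and haemoglobin transcripts made up 0.00701% to 0.0247% of the counts of a library. In the list of hepatocyte genes 4 of 5 tested were higher in kidney, but albumin (Alb) had 114 and 71 counts in kidney and 140 and 70 in heart, and the adrenal and lung lists had 1 tested gene each.

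Genes of the acute phase and inflammation, which CLP induces, also differed between the septic organs. Of 30 tested genes, 17 were higher in heart and 7 were higher in kidney (median -1.01). The number higher in heart was 13 with scaling by library size alone and with DESeq2's Wald test, which left 5 higher in kidney. Without the CLP kidney library the median was -1.65, and without the CLP heart library it was -0.67. On the side of the heart, the protease inhibitor Serpina3n had 3201 and 1207 counts against 255 and 15 in kidney (-5.30 ± 0.43), Osmr, the oncostatin M receptor, had 2701 and 2691 against 482 and 384 (-3.23 ± 0.24), and Saa3, a serum amyloid made outside the liver, had 2992 and 698 against 560 and 183 (-2.78 ± 0.29). Serpina3n and Saa3 were lower in CLP + MLT in both tissues, while Osmr was close in the 2 treatments.

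On the side of the kidney, Lcn2, a marker of tubular injury, had 11346 and 1600 counts against 3224 and 372 in heart (1.37 ± 0.29), and Cxcl10, an interferon-induced chemokine, had 215 and 35 against 5 and 2 (4.26 ± 0.68). The fibrinogen gamma chain gene Fgg had 13553 and 622 counts against 162 and 106 (3.93 ± 0.66), and Hmox1, heme oxygenase, had 4739 and 472 against 265 and 215 (2.09 ± 0.47). These 4 kidney genes were lower in the CLP + MLT kidney than in the CLP kidney, and for Fgg and Hmox1 the log2 ratio was larger in the CLP pair (5.49 and 3.27) than in the CLP + MLT pair (2.27 and 0.85). Saa1 had 3546 and 72 counts in kidney and 153 and 72 in heart and is counted beside its near-identical copy Saa2, so the ratio of each is uncertain. It was 1 of only 2 called genes whose 2 pairs had opposite signs.

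Clock genes were higher in heart in 10 of 15 (66.7%, against 27.9% of all genes), or in 7 of 15 with scaling by library size alone and with DESeq2's Wald test. Arntl and Npas2, which activate the clock, stood at -2.57 ± 0.31 and -2.76 ± 0.49, and the repressors Per1, Per2 and Per3 between -1.47 and -1.23. Hlf, an output factor of the clock, was higher in kidney (2.38 ± 0.33). The sources do not give the hour of collection of the hearts.

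The shared part of the transcriptome was measured with the interval of the ratio, since a p that misses the threshold does not show a similar level. Of the tested genes, 3041 (17.8%) had a similar level, which is 23.8% of the 12797 genes with at least 1 CPM in every library. A further 4224 genes were neither called nor shown to be similar. With the interval held within a 1.5-fold difference 428 genes remained, and with DESeq2's Wald test 1880 were similar. Without the CLP kidney library the number was 2013 and without the CLP + MLT kidney library it was 1888.

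Among genes of similar level the highest TPM were those of translation and energy supply. Rps15 had 12567 and 10760 counts in kidney and 9433 and 6275 in heart (0.01 ± 0.34), Rplp1 had 9094 and 6590 against 5231 and 3444 (0.28 ± 0.29), and Atp5b, the catalytic ATP synthase subunit, had 38494 and 23530 against 30234 and 14767 (-0.08 ± 0.40). Actb, the cytoplasmic actin, had 21757 and 14358 against 10119 and 11481 (0.13 ± 0.32). Of 79 ribosomal protein genes, 37 had a similar level (46.8%, against 17.8% of all genes) and 12 were higher in kidney. With scaling by library size alone 39 were higher in kidney. Rps10 had only 92 and 50 counts against 9 and 13, and its ratio (2.04) is uncertain, as for other ribosomal protein genes with near-identical processed copies.

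The proteasome degrades proteins. Of the ribosome, proteasome, splicing and RNA polymerase II lists, it had the largest share called higher in kidney. The median of the RNA polymerase II list was close to its own, at 0.82. Of 31 constitutive genes, 22 were higher in kidney (71.0%, against 29.6% of all genes, median 0.80). Psma2 stood at 1.88 ± 0.21 and Psmb5, the subunit with chymotrypsin-like activity, at 1.86 ± 0.27. The inducible subunits that replace the catalytic ones in immune responses, Psmb8, Psmb9 and Psmb10, were all higher in heart, at -1.59 ± 0.22, -1.99 ± 0.31 and -1.54 ± 0.21. Each overlaps a gene on the other strand, Gm20496 (-1.42), Tap1 (-2.17) and Gm16156 (-2.62). Without a stated strand setting their counts cannot be told apart. With scaling by library size alone 24 constitutive genes were higher in kidney and these 3 inducible subunits stayed higher in heart.

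Of 26 splicing genes, 7 were higher in kidney (26.9%), 5 were higher in heart (19.2%) and 12 were similar, so the called shares were below those of all genes (29.6% and 27.9%). These were 8 and 2 with scaling by library size alone. The core proteins Snrpd3 (2.59 ± 0.22) and Snrpa (1.87 ± 0.22) were higher in kidney, and Sf3b1, which recognises the branch site, had 18008 and 16051 counts in heart and 7049 and 5798 in kidney (adjusted p = 0.00057). Of 23 genes of RNA polymerase II and its general factors, 12 were higher in kidney and 1, Gtf2h2, was higher in heart, a call lost with scaling by library size alone and with DESeq2's Wald test. Of 345 tested zinc finger genes named Zfp, 116 were higher in heart (33.6%, against 27.9% of all genes) and 35 were higher in kidney (10.1%, against 29.6%). They were 78 and 54 with scaling by library size alone.

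Genes often used to normalise between samples were not all level. Of 16 such genes, 8 were higher in kidney (50%, against 29.6% of all genes) and 2 were higher in heart (12.5%, against 27.9%). Another 4 were similar (25%, against 17.8%). Pgk1 stood at 2.12 ± 0.25 and Ppia at 1.92 ± 0.31. B2m was higher in heart (-0.90 ± 0.27). With scaling by library size alone 11 were higher in kidney and B2m and Gusb were no longer called. Gapdh had 4519 and 2234 counts in kidney and 1883 and 1383 in heart (0.39 ± 0.22) and was similar, as were Actb and Hprt (0.52 ± 0.21).

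Some genes were found in 1 tissue at this depth. With at least 100 counts in both libraries of a tissue and at most 3 counts in each library of the other, 106 genes belonged to heart and 62 to kidney. Of the 106, 83 encode proteins and 43 had no count in either kidney library. Hfe2, the hemojuvelin of striated muscle, had 3157 and 1943 counts in heart and none in kidney, at least 786-fold higher. Art1, an ADP-ribosyltransferase of muscle, had 8558 and 6742 against 2 and 1, and Csrp3, a stretch sensor of the Z-disc, had 5225 and 3576 against 3 and 1. Of the 62 kidney genes, 43 encode proteins and 14 had no count in either heart library. Fermt1, an adhesion protein of epithelium, had 988 and 559 counts in kidney and 0 and 2 in heart, and Aoc1, the diamine oxidase, had 317 and 126 in kidney and none in heart. Where the other tissue was allowed up to 1 CPM in place of 3 counts, the order turned, with 358 genes of kidney and 236 of heart.

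The tissue ratio was compared between the 2 treatments as values only, since each pair has 1 library per tissue. Of the 9823 called genes, 99.98% had the same sign in both pairs. That share was nearly fixed in advance, since a call needs a ratio large against the spread between the pairs. Over all tested genes, 263 had opposite signs past a 1.5-fold difference, and 17 of these were among the 78 nuclear genes of oxidative phosphorylation. Cox4i1, a core oxidase subunit, had 23305 and 18537 counts in kidney and 22399 and 7667 in heart, giving -0.83 in the CLP pair and 0.99 in the CLP + MLT pair. The list as a whole had a median of -0.54 in the CLP pair and 0.91 in the CLP + MLT pair, and took 2.88% and 1.29% of TPM in heart against 2.54% and 2.39% in kidney. The lowest of these shares was that of the CLP + MLT heart, a single library, and its part in the change of sign was not tested.

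**Figure D5:**
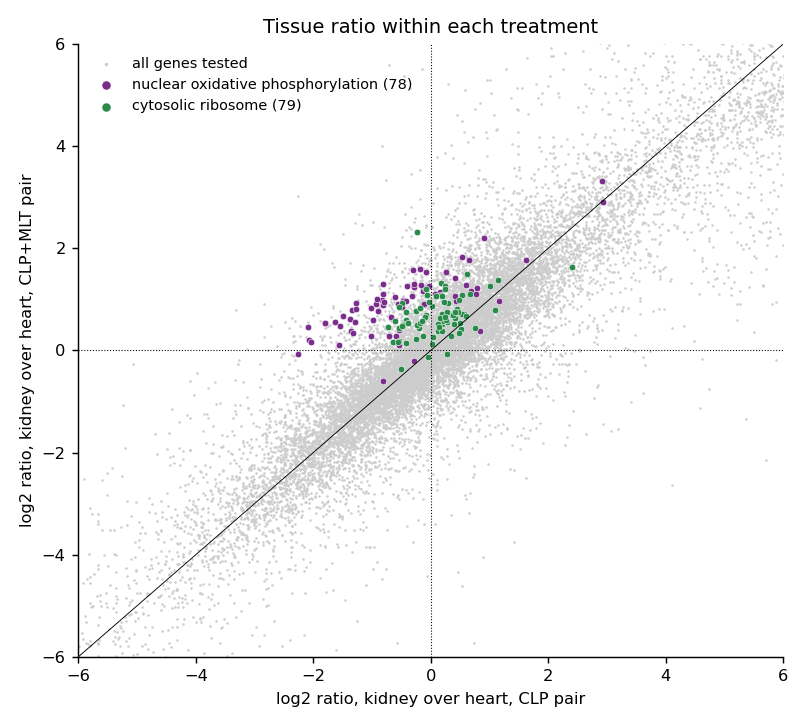
The axes are the log2 ratio of kidney over heart in the CLP pair (horizontal) and in the CLP + MLT pair (vertical), with 1 point per gene and a line of equality. Of the 78 genes of oxidative phosphorylation 75 lie above the line, many of them left of 0 and above 0, and the 79 ribosomal protein genes lie nearer to it. The axes stop at 6, which leaves 1055 genes outside.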

How the data were processed

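Per the study's methods and the labels, poly(A) RNA was sequenced, the authors trimmed reads with trim-galore, aligned them to mm10 with HISAT2 2.1.0 and counted them per gene with HTSeq. The authors deposited raw counts without normalization for 55401 genes. For HTSeq, its version, strand setting and annotation file are not stated in the sources used here. The 5 closing totals of each file, which name no gene, made up 65.5% to 72.8% of all reads in a file and were left out. Symbols and lengths came from GENCODE M21 (55141 identifiers matched, 260 not).

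Counts were fitted in R 4.3.3 with edgeR 4.0.16 (TMM factors 0.890 to 1.20, quasi-likelihood test, terms for treatment and tissue, 1 residual degree of freedom with 8.84 prior ones). Within-treatment ratios used a prior count of 0.5, and floors were 3 counts, for counting error only. DESeq2 1.42.0, limma 3.58.1, other scalings and filters, and leaving out each library were the alternatives. Tables and figures used Python 3.11.15, pandas 2.3.3 and matplotlib 3.10.9.

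In simulated counts with a variation of 0.2 between samples, 24.5% of 2-fold, 96.0% of 4-fold and 100% of 8-fold changes were recovered, over 16883 to 16892 genes. With a variation of 0.4 these were 0%, 17.3% and 88.5%, over 16800 to 16840 genes. Each simulation changed only 197 to 200 genes, while 9823 were called in the data, so these shares need not hold for the data. The comparison, the lists and the rule for named genes were chosen with earlier results of these data known. By that rule the text names the 10 largest called ratios in each direction that averaged 1000 counts or more, the 4 largest ratios of a list and members called against its direction, both genes of a pair, and the highest TPM. Genes outside it, such as Ryr2, Gapdh, Hprt and those found in 1 tissue, were picked with their values in view. Some results are not reported here.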

Additional observations from a re-analysis of the deposited data

Results flagged for a closer look

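Some tissue ratios had opposite signs in the 2 treatments, past a 1.5-fold difference in each. The difference between the pairs was not tested, since each has 1 library per tissue, and it cannot be told apart from a difference between single libraries. The list of nuclear oxidative phosphorylation genes had a median log2 ratio of kidney over heart of -0.54 in the CLP pair and 0.91 in the CLP + MLT pair. Within it Cox5b, an oxidase subunit, stood at -0.82 and 1.30, with 8530 and 7720 counts in kidney (CLP, CLP + MLT) and 8103 and 2580 in heart. mt-Nd3, a complex I subunit of the mitochondrial genome, stood at -2.84 and 0.92, with 5472 and 14712 counts in kidney and 21130 and 6414 in heart. Fgb, the fibrinogen beta chain, stood at 4.10 and -2.63, with 4755 and 18 counts in kidney and 149 and 94 in heart.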

How the results depend on the processing

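The 2 called sets were within 1.5 times of the reported 5051 and 4772 genes in all alternatives but a fold of at least 4, which left 2465 genes higher in kidney and 2176 higher in heart. Leaving out each library in turn gave 3599 to 4857 genes higher in kidney and 3705 to 4490 higher in heart. Genes of similar level were the least stable, at 1880 with DESeq2's Wald test, 428 with an interval within 1.5-fold, and 1888 to 2481 without each library, where a tissue with 1 library is assumed to vary like the other. The genes of 1 tissue rose to 358 in kidney and 236 in heart with a limit of 1 CPM. Over 281 named or list genes and their 2795 alternative values, 57 lost their call and 24 gained one. Of the values of called genes 0 changed sign. Changes of sign were not counted for genes without a call, some of which have ratios near 0. List medians near 0 did change sign without 1 library. That of oxidative phosphorylation ran from -0.46 to 0.74, that of podocytes from -0.07 to 0.12 and that of the spliceosome from -0.03 to 0.06. The labels carry no replicate numbers, and the pairs are those of treatment, which was the block. Without that block 5084 and 4813 genes were called.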
